A study of Homo sapiens with 10 samples.

Results

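Replication-dependent histone genes were compared in RNA from extracellular vesicles and whole cells of PC3, an established prostate cancer epithelial line. These genes were taken as the entries of the count table that GENCODE 29 annotates as protein-coding, with a symbol beginning with HIST1H, HIST2H, HIST3H or HIST4H. The rule gave 71 of 94946 entries: 6 encode the linker histone H1, 17 encode H2A, 18 H2B, 15 H3 and 15 H4. In GENCODE 29 (GRCh38), 55 lie on chromosome 6, between chr6:25726132-27893843, 15 lie on chromosome 1 and 1 lies on chromosome 12. Newer symbols exist for 66 of them; HIST1H4B, for example, is now H4C2.

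Vesicles (EVs) had been collected by centrifugation in 3 pellets, called 2.8K, 10K and 100K EVs here after the spin in the labels, which give no unit, with 3 libraries each and set numbers 1 to 3. The cells were 1 further library. All 10 libraries came from PC3 cells grown in medium with fetal bovine serum, and they were made from total RNA with a stranded kit. Nothing in the labels says whether the 3 sets came from separate cultures, so p-values measure the spread between these libraries, which may be technical.

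Most cellular mRNAs end in a poly(A) tail. Replication-dependent histone mRNAs are the known exception: their genes typically lack introns, and the mRNA ends just after a conserved stem-loop, which is bound by the stem-loop-binding protein SLBP. The mRNAs accumulate during S phase, when new DNA has to be packaged, and are degraded when replication stops. H2A, H2B, H3 and H4 form the nucleosome core, and H1 binds the linker DNA between nucleosomes. Many members also have a longer polyadenylated form, which the annotation lists for some of them.

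The stem-loop was searched in the annotated transcripts on the transcript strand as 2 stem arms, GGNNCT and AGNNCC, around the loop TTTN (N: any base), within 100 bases after the stop codon. It was found in 31 of the 71 members, of 32 genes in all among 19576 protein-coding genes, a share of 0.163%; on the opposite strand 1 gene matched. The match outside the family was H2AFX, a histone variant gene. By type, 7 H2A, 11 H2B, 5 H3, 8 H4 and 0 H1 genes had a match. For 35 members the annotated transcript ends at the stop codon, so no letters after it could be searched. The following sequences show how the stem differs between types. They run 5′ to 3′, as DNA letters of the GENCODE 29 transcripts, with up to 5 bases on either side of the match and the motif in capitals.
HIST1H4B: ccaatGGCCCTTTTCAGGGCCgccca
HIST1H4E: tcaaaGGCCCTTTTCAGGGCCgccca
HIST1H4H: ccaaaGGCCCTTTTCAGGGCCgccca
HIST2H4A: ccaaaGGCCCTTTTTAGGGCCgacca
HIST1H3H: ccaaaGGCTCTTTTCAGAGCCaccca
HIST1H2AG: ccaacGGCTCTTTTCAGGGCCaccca
HIST3H2A: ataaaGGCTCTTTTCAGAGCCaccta
HIST1H2BC: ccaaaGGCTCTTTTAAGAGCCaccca
HIST2H2BF: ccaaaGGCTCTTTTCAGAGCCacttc
All 8 H4 matches carried the stem beginning GGCCC, with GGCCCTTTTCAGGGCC in 5 genes and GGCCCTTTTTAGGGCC in 3. None of the 23 H2A, H2B and H3 matches did. There, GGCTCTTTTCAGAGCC was found in 17 genes, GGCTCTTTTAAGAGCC in 5 and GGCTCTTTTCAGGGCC in HIST1H2AG alone. The match began 23 to 68 bases after the stop codon.

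The table holds whole-number read counts per gene, totalling 5424964 to 28735081 per library. The groups also differed outside the family. Mitochondrially encoded genes took 7.54% ± 4.63 (SD, n = 3) of the counts in 2.8K EVs, 0.954% ± 0.114 in 10K EVs and 0.00646% ± 0.00138 in 100K EVs, and 2.88% in the cells. Replicate 1 of the 2.8K EVs stood apart, at 12.9% against 4.92% and 4.81% in the other 2.8K libraries. A single noncoding entry, lnc-ARF6-1, took 2.65% ± 1.15, 6.65% ± 1.12 and 8.88% ± 1.69, and 0.161% in the cells. All 6 genes chosen as markers of PC3 (KRT8, KRT18, KRT19, EPCAM, CD44 and VIM) were detected in every group, with summed levels of 2619 to 3467 CPM (counts per 1000000 counts) in 2.8K EVs, 2045 to 2655 in 10K EVs, 978 to 1165 in 100K EVs and 2060 in the cells. EPCAM was low, with means of 4.12, 6.56 and 2.09 CPM in the 3 pellets, 0 in 100K replicate 3 and 9.61 CPM in the cells. By edgeR, 4 of the 6 markers were lower in 100K than in 2.8K EVs and 5 lower in 100K than in 10K EVs, with median log2 fold changes of -1.54 and -1.44. The part of this in the results on histone genes was not tested. The 9 marker genes of blood, liver, stromal and endothelial sources summed to at most 28.2 CPM in any library, and 6 of them were at 0 in the cells.

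Of the 71 members, 50 had enough counts in the vesicle libraries to be tested: 3 H1, 14 H2A, 16 H2B, 8 H3 and 9 H4. Of the 21 others, 7 were at 0 in all 10 libraries and 14, these included, were at 0 in the cells. HIST1H1B had 2 counts over all vesicle libraries and 0 in the cells. The members known for expression in testis were close to absent: HIST3H3 had no count, HIST1H2AA and HIST1H2BA had 2 and 5 counts over the 9 vesicle libraries and 0 in the cells, and HIST1H1T had 4 and 53. HIST1H1A had 24 counts in 2.8K replicate 2 and 2 more over the other vesicle libraries. Some members cannot be separated well by short reads, because at least 80% of the 50-base windows of 14 members also occur in the transcripts of other genes. Levels of HIST2H3D (80.4% of windows shared), HIST1H2AJ (83.7%) and HIST1H2BK (74.1%) are therefore uncertain, since how such reads were counted was not given in the sources used here. For 50 members under 10% of windows were shared.

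Histone transcripts made up a smaller part of the vesicle libraries than of the cell library. In 2.8K EVs they took 0.263%, 0.314% and 0.326% of all counts. In 10K EVs they took 0.506%, 0.573% and 0.467%, and in 100K EVs 0.497%, 0.612% and 0.442%. The cell library had 0.929%, with a 95% Wilson interval of 0.926% to 0.933% that covers counting error only. Every 10K and 100K library lay above every 2.8K library, the 10K and 100K values overlapped, and all 9 lay below the cells. Means were 0.301% ± 0.0330 (SD, n = 3), 0.515% ± 0.0533 and 0.517% ± 0.0866. In bulk RNA, fewer vesicles with a transcript and fewer copies in each cannot be told apart.

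The make-up of the histone counts also differed between pellets. H4 genes took 9.73%, 8.18% and 7.34% of the histone counts in 2.8K EVs, 16.6%, 16.35% and 14.05% in 10K EVs, and 28.1%, 23.1% and 24.35% in 100K EVs, against 7.08% in the cells. Their means were 8.42%, 15.7% and 25.2%. The 3 pellets did not overlap in this share. The shares of H2B and H1 in the histone counts were lower in 10K and 100K EVs: H2B took 33.2% ± 3.51 (SD, n = 3), 27.3% ± 0.0393 and 21.9% ± 1.73, and H1 22.4% ± 1.98, 15.9% ± 2.37 and 11.5% ± 0.477, with 28.6% and 24.4% in the cells. These shares sum to 100% in a library, so those of other types shrink as that of H4 grows. As percent of all counts, H2B took 0.0992% ± 0.00377, 0.140% ± 0.0147 and 0.113% ± 0.0219 (0.266% in the cells), H1 0.0676% ± 0.0118, 0.0812% ± 0.00531 and 0.0593% ± 0.00739 (0.227%), and H4 0.0251% ± 0.00101, 0.0811% ± 0.0142 and 0.1295% ± 0.0190 (0.0658%). H2A (25.2% ± 2.66, 27.1% ± 0.984 and 28.3% ± 1.604; 24.1% in the cells) and H3 (10.8% ± 1.06, 14.1% ± 0.286 and 13.1% ± 0.734; 15.8% in the cells) moved less. Among the H4 genes HIST1H4B was the most counted one in the vesicles by mean, and it took 36.7% ± 9.05 of the H4 counts in 2.8K EVs, 60.9% ± 4.69 in 10K EVs and 66.2% ± 1.50 in 100K EVs, and 20.1% in the cells. HIST1H4J, HIST1H4K, HIST2H4A and HIST2H4B share 81.2% to 100% of their 50-base windows with other genes, against 1.8% for HIST1H4B. These shares therefore depend on how reads of near-identical copies were counted, which was not given in the sources used here. Without HIST1H4B the family's share of all counts was 0.292% ± 0.0353, 0.466% ± 0.0423 and 0.431% ± 0.0791, and 0.916% in the cells.

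**Figure D1:**
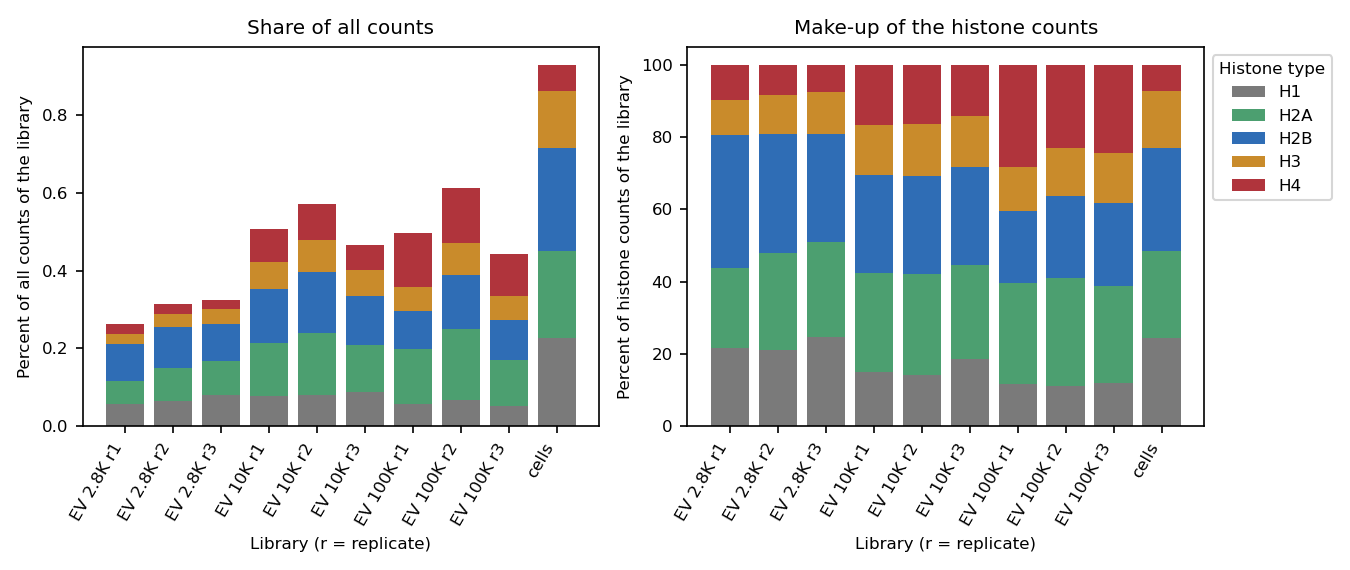
Stacked bars per library of the 5 histone types, as percent of all counts (left) and percent of the histone counts (right). The bars of 10K and 100K EVs are higher than those of 2.8K EVs and lower than that of the cells (0.929%), and the H4 part widens to 25.2% of histone counts on average in 100K EVs.

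Differences between pellets were tested gene by gene with edgeR's quasi-likelihood F-test on the 9 vesicle libraries, with p-values adjusted over all 15525 genes tested (Benjamini-Hochberg). A gene was called at an adjusted p below 0.05. In 10K EVs against 2.8K EVs, 18 of the 50 tested members were higher and 0 lower, or 36.0%, where 6.38% of all genes tested were called (4.15% higher and 2.22% lower). At an unadjusted p below 0.05, edgeR gave 29 higher and 0 lower, and DESeq2 called 25 higher and 0 lower after adjustment. The members' median log2 fold change was 0.91, against -0.01 over all genes tested. In 100K EVs against 2.8K EVs, 19 were higher and 3 lower, where 12% of all genes were called higher and 13.8% lower. The median was again 0.91, against -0.06 over all genes. In 100K EVs against 10K EVs, 2 were higher and 3 lower, or 10.0%, close to the 10.9% of all genes tested (3.7% higher and 7.23% lower), with a median of -0.23 against 0.01. The joint test of any difference between the 3 pellets called 25 of the 50 members, where it called 23.3% of all genes. The 3 comparisons share libraries, so their values are given side by side.

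The called members were spread over the core types. In 10K EVs against 2.8K EVs, 6 of 14 H2A, 6 of 16 H2B, 4 of 8 H3, 2 of 9 H4 and 0 of 3 H1 genes were higher. In 100K EVs against 2.8K EVs, 6 H2A, 5 H2B, 4 H3, 3 H4 and 1 H1 gene were higher, and 2 H2A and 1 H2B gene were lower. Median log2 fold changes in the first of these comparisons were 1.20 for H2A, 0.80 for H2B, 1.10 for H3, 1.26 for H4 and 0.58 for H1. In the second they were 1.15, 0.32, 0.99, 1.43 and -0.10. Mitochondrial share and the lnc-ARF6-1 share moved with the pellets. With mitochondrially encoded genes left out of the fit, 19 and 0 members were higher and lower in 10K EVs against 2.8K EVs, and 19 and 3 in 100K EVs against 2.8K EVs. With lnc-ARF6-1 left out they were 20 and 0, and 20 and 3. The lower calls in 100K EVs against 2.8K EVs came to 1 without 2.8K replicate 2, 1 without 100K replicate 3, and 2 or 3 without any other single library.

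**Figure D2:**
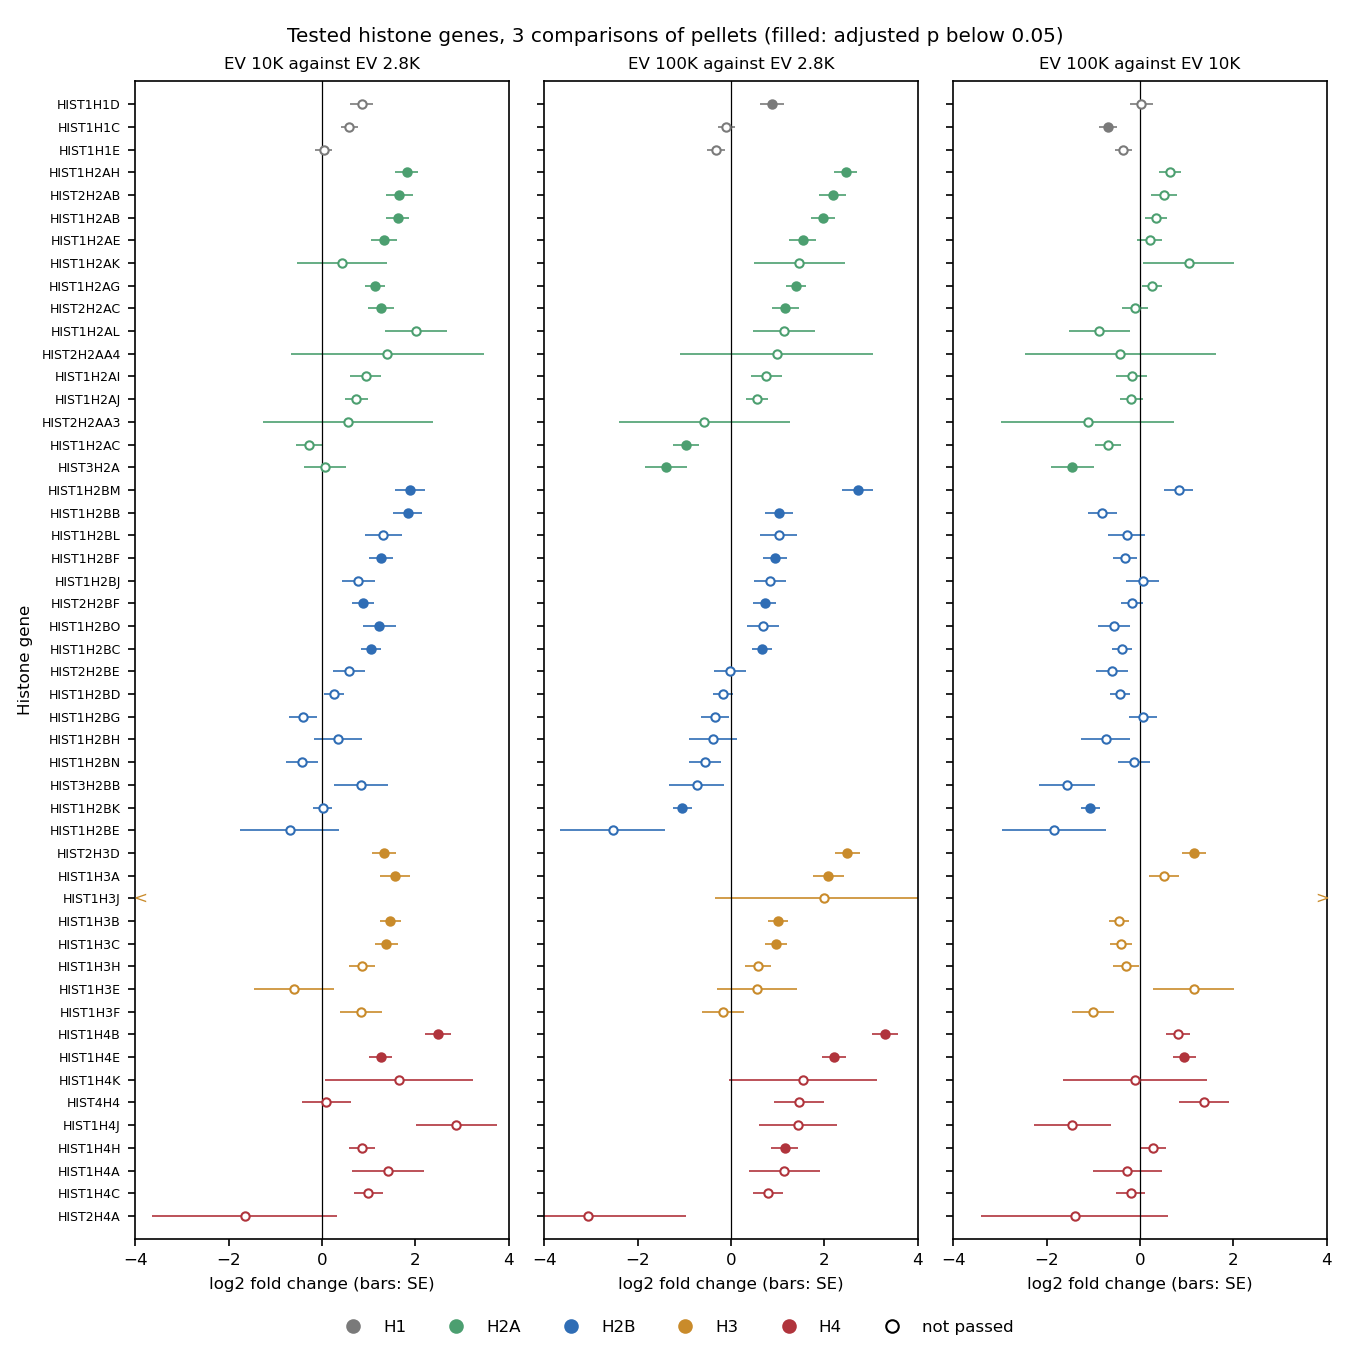
The log2 fold change (points) with its standard error (bars) for the 50 tested histone genes in the 3 comparisons, coloured by type, with filled points at an adjusted p below 0.05. Most points of the first comparison lie right of 0, HIST1H4B lies farthest right among the filled points of the second, and points of the last lie on both sides; an arrow marks HIST1H3J beyond the axis, and bars that pass the axis are cut.

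Among the H4 genes, whose protein pairs with H3 in the nucleosome core, HIST1H4B (ENSG00000278705.1, a single exon at chr6:26026815-26027252, minus strand) stood out. It measured 131, 87.2 and 57.1 CPM, scaled by TMM factors, in replicates 1 to 3 of the 2.8K EVs. In 10K EVs it measured 577, 599.9 and 376 CPM, and in 100K EVs 1070, 908 and 763 CPM, with 109 CPM in the cells. The pellets did not overlap, and all 10K and 100K libraries were above the cell library. By edgeR, HIST1H4B was higher in 10K EVs than in 2.8K EVs by 2.48 on the log2 scale (SE 0.27, adjusted p = 2.1e-05), and in 100K EVs than in 2.8K EVs by 3.29 (SE 0.28, adjusted p = 1.66e-07). Between 100K and 10K EVs the difference of 0.81 (SE 0.26) did not pass, with adjusted p = 0.0541. That value ranged from 0.00307 to 0.272 over the alternatives, of which 8 of 17 passed, among them those without 2.8K replicate 1 and without 2.8K replicate 3. Only 1.8% of its windows are shared with other genes.

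HIST1H4E (chr6:26204552-26206038, plus strand, 1 exon with 1082 bases after the stop codon) was the second H4 gene by mean CPM over the vesicle libraries. Per kilobase of annotated exon HIST1H4C was above it in 2.8K EVs (76.9 against 40.4) and 10K EVs (154.7 against 97.3). The length used was 1487 bases for HIST1H4E, including those 1082, and 435 for HIST1H4C, so this order depends on the annotated ends. HIST1H4E measured 81.7, 55.5 and 42.8 CPM in 2.8K EVs, 159.7, 158 and 116 CPM in 10K EVs, and 322, 288 and 229.6 CPM in 100K EVs, with 118 CPM in the cells. The pellets did not overlap. It was higher by 1.26 on the log2 scale (SE 0.25, edgeR adjusted p = 0.00429) in 10K EVs and 2.20 (SE 0.26, adjusted p = 4.62e-06) in 100K EVs, each against 2.8K EVs. It was also one of 2 members higher in 100K EVs than in 10K EVs, by 0.95 (SE 0.25, edgeR adjusted p = 0.0175). That last call was lost without 10K replicate 3, 100K replicate 1 or 100K replicate 2, with adjusted p = 0.112, 0.0866 and 0.053. HIST1H4H was higher in 100K EVs than in 2.8K EVs, by 1.15 (SE 0.28, edgeR adjusted p = 0.00501), and the other 6 tested H4 genes passed in none of the 3 pairwise comparisons. Of these, HIST1H4J passed the joint test (edgeR adjusted p = 0.0486).

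**Figure D3:**
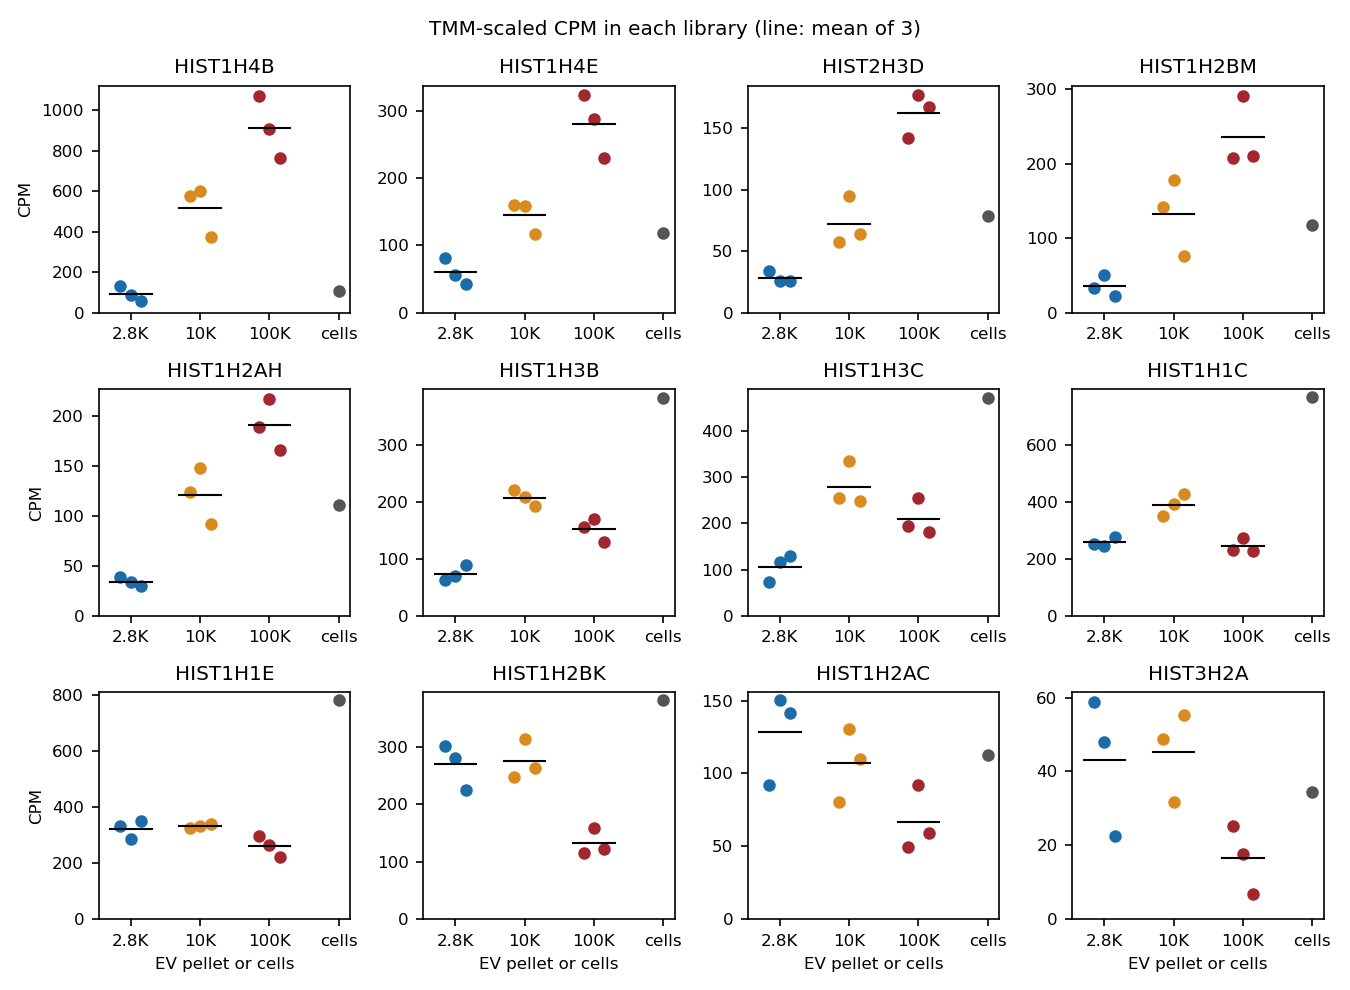
TMM-scaled CPM of 12 histone genes in every library (points; each panel has its own axis from 0, and the line is the mean of 3 libraries). HIST1H4B, HIST1H4E and HIST2H3D step up from 2.8K EVs to 100K EVs without overlap, whereas HIST1H2BK is lowest in 100K EVs and HIST1H1E and HIST1H3B are highest in the cells.

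H3 carries many of the best-known modified lysines of chromatin. HIST1H3C (chr6:26045411-26045821, plus strand) was the most counted H3 gene, with 73.4, 116 and 129 CPM in 2.8K EVs, 254, 334 and 249 CPM in 10K EVs, 193, 255 and 182 CPM in 100K EVs, and 469.5 CPM in the cells. HIST1H3B (chr6:26031650-26032060, minus strand) had the same order, with 63.8, 70.3 and 89.3 CPM, 221, 208 and 193 CPM, 157, 169.8 and 129.9 CPM, and 383 CPM in the cells. For both genes 2.8K EVs lay below the other pellets in every library and the cells lay above all vesicles. Both were called higher than in 2.8K EVs: HIST1H3C by 1.38 in 10K EVs and 0.96 in 100K EVs, and HIST1H3B by 1.46 and 1.01, with edgeR adjusted p of at most 0.00519. HIST2H3D, on chr1:149813271-149813681 (minus strand), followed another order. It measured 33.8, 26.0 and 25.4 CPM in 2.8K EVs, 57.6, 95.1 and 63.7 CPM in 10K EVs, and 142, 177 and 167 CPM in 100K EVs, with 78.3 CPM in the cells. The pellets did not overlap, and 100K EVs exceeded 10K EVs by 1.16 on the log2 scale (SE 0.25, edgeR adjusted p = 0.00525), a call that held in all 17 alternatives. Against 2.8K EVs it was higher by 1.33 in 10K EVs and 2.49 in 100K EVs. HIST1H3A was also higher than in 2.8K EVs, by 1.56 in 10K EVs and 2.08 in 100K EVs.

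HIST1H3J had no count in any 10K library, 26 counts in 2.8K replicate 2 and 0 in the other 2.8K libraries, 8, 14 and 17 counts in the 100K libraries, and 2 in the cells. It passed in no comparison, and it overlaps HIST1H2AM on the same strand. Placing it at a floor of 3 counts over the 10K libraries left the members' medians at 0.91 and -0.23.

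H2A genes, whose protein pairs with H2B on the outside of the core, were called in both directions in 100K EVs against 2.8K EVs. Of the 14 tested, 6 rose, 2 fell and 6 did not pass. Over all genes tested 12% were called higher and 13.8% lower, so the lower calls were near the share of all genes. HIST1H2AG (chr6:27133042-27135291, plus strand) had the highest mean CPM of the H2A genes over the 9 vesicle libraries, not corrected for length, with 102, 126 and 129 CPM in 2.8K EVs, 266, 330.2 and 199 CPM in 10K EVs, 336, 341 and 273 CPM in 100K EVs, and 248 CPM in the cells. HIST1H2AH (chr6:27147129-27147515, plus strand) measured 39.3, 34.0 and 29.5 CPM, 124, 148 and 91.7 CPM, 189, 218 and 166 CPM, and 112 CPM in the cells. HIST2H2AB (chr1:149887524-149887916, minus strand) measured 30.2, 26.5 and 37.7 CPM, 112, 116 and 71.7 CPM, 158, 181 and 94.4 CPM, and 129 CPM in the cells. In all of these 2.8K EVs lay below both other pellets without overlap, and only HIST1H2AH kept 10K and 100K EVs apart. In 10K and 100K EVs against 2.8K EVs, HIST1H2AG was higher by 1.14 and 1.39, HIST1H2AH by 1.81 and 2.46, and HIST2H2AB by 1.66 and 2.18, with edgeR adjusted p of at most 0.00328. HIST2H2AB overlaps BOLA1 on the opposite strand, and the strand setting of the counting was not given in the sources used here. HIST1H2AB, HIST1H2AE and HIST2H2AC were higher in both comparisons too, by 1.27 to 1.62 in 10K EVs and 1.16 to 1.97 in 100K EVs; the 10K call of HIST2H2AC was lost with library totals alone (adjusted p = 0.0551).

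HIST1H2AJ, next by the same measure and above HIST1H2AG per kilobase of annotated exon in all pellets (332, 558 and 493 against 53.0, 118 and 141 CPM per kilobase), measured 152, 113 and 120.3 CPM in 2.8K EVs, 261, 235 and 151 CPM in 10K EVs, 187, 233 and 154 CPM in 100K EVs, and 283 CPM in the cells. The length used was 2250 bases for HIST1H2AG, 1827 of them after the stop codon, and 387 for HIST1H2AJ. The order per kilobase thus depends on the annotated ends. The differences of HIST1H2AJ from 2.8K EVs, 0.74 and 0.55, did not pass (edgeR adjusted p = 0.0784 and 0.101). The first passed in 4 of 17 alternatives, among them those without 2.8K replicate 1 and without 10K replicate 3 (adjusted p down to 0.0257), and the second without 2.8K replicate 1 (0.0384). The H2A genes that fell were HIST1H2AC and HIST3H2A, both annotated with long forms. HIST1H2AC (chr6:26124145-26139116, plus strand, 2 exons) measured 92.2, 150.5 and 142 CPM in 2.8K EVs, 80.5, 131 and 110.2 CPM in 10K EVs, 49.7, 91.8 and 59.3 CPM in 100K EVs, and 112 CPM in the cells. The 100K EVs lay below the 2.8K EVs, the closest values being 91.8 and 92.2 CPM, and were lower by 0.96 on the log2 scale (SE 0.28, edgeR adjusted p = 0.017). The call was lost without 2.8K replicate 2 or 3 (adjusted p = 0.0948 and 0.0619) or 100K replicate 1 or 3 (0.103 and 0.0755). HIST3H2A (chr1:228456979-228457873, minus strand) measured 58.8, 47.9 and 22.5 CPM in 2.8K EVs, 48.8, 31.7 and 55.2 CPM in 10K EVs, 25.3, 17.6 and 6.89 CPM in 100K EVs, and 34.5 CPM in the cells. The 100K EVs overlapped 2.8K EVs and lay below 10K EVs. HIST3H2A in 100K EVs fell by 1.39 against 2.8K EVs (SE 0.46, edgeR adjusted p = 0.0309) and by 1.45 against 10K EVs (SE 0.46, adjusted p = 0.0488). The first was lost without 2.8K replicate 1 or 2, 10K replicate 3, or 100K replicate 2 or 3 and in the fit on the 6 libraries compared, and the second with DESeq2 size factors and without 2.8K replicate 2, any single 10K library, or 100K replicate 2 or 3, with adjusted p of up to 0.144 and 0.214.

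Among the H2B genes, HIST1H2BM (chr6:27815044-27815424, plus strand) had the largest called difference. It measured 33.1, 50.9 and 22.4 CPM in 2.8K EVs, 142, 178 and 76.3 CPM in 10K EVs, and 207, 290.6 and 210.4 CPM in 100K EVs, with 118 CPM in the cells. The pellets did not overlap. It was higher than in 2.8K EVs by 1.88 in 10K EVs (SE 0.32, edgeR adjusted p = 0.00124) and by 2.71 in 100K EVs (SE 0.33, adjusted p = 7.75e-06), and the 0.83 between 100K and 10K EVs did not pass (adjusted p = 0.106). HIST1H2BK (chr6:27146418-27146798, minus strand) ran the other way. It measured 303, 282 and 225 CPM in 2.8K EVs, 248, 314 and 264 CPM in 10K EVs, and 115, 159 and 123 CPM in 100K EVs, with 382 CPM in the cells. The 100K EVs lay below both other pellets in every library, which overlapped each other. In 100K EVs, HIST1H2BK fell by 1.05 against 2.8K EVs (SE 0.21, edgeR adjusted p = 0.000851) and by 1.06 against 10K EVs (SE 0.21, adjusted p = 0.00232), and both calls held in all 17 alternatives.

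HIST1H2BC and HIST1H2BB were highest in the middle pellet by mean. HIST1H2BC (chr6:26114873-26123926, minus strand) measured 104, 122 and 99.7 CPM in 2.8K EVs, 212, 280.4 and 189.5 CPM in 10K EVs, 165.5, 204.5 and 154 CPM in 100K EVs, and 307 CPM in the cells. HIST1H2BB (chr6:26043277-26043657, minus strand) measured 22.4, 21.7 and 32.3 CPM, 128, 61.4 and 85.0 CPM, 48.5, 58.0 and 51.5 CPM, and 133 CPM in the cells. In both, 2.8K EVs lay below all other libraries; 10K and 100K EVs overlapped for HIST1H2BC and did not for HIST1H2BB. Against 2.8K EVs, HIST1H2BC was higher by 1.05 in 10K EVs and 0.66 in 100K EVs, and HIST1H2BB by 1.83 and 1.03, with edgeR adjusted p of at most 0.0291. The 100K call of HIST1H2BC was lost with library totals alone (adjusted p = 0.115) and without 2.8K replicate 3, 100K replicate 1 or 100K replicate 2 (0.0583, 0.0578 and 0.163). That of HIST1H2BB was lost with library totals alone and without 100K replicate 2 (0.0548 and 0.0716). HIST1H2BF was higher by 1.26 and 0.95, the latter lost without 100K replicate 1 (adjusted p = 0.067).

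HIST2H2BF (chr1:149782689-149812373, minus strand) measured 80.2, 48.4 and 76.0 CPM in 2.8K EVs, 126, 131 and 124 CPM in 10K EVs, 118, 127 and 95.6 CPM in 100K EVs, and 179 CPM in the cells. HIST1H2BO (chr6:27893463-27893843, plus strand) measured 28.6, 17.4 and 35.1 CPM, 85.5, 38.3 and 68.4 CPM, 45.4, 44.8 and 42.0 CPM, and 116 CPM in the cells. For both genes every 10K and 100K library was above every 2.8K library, in places by little. HIST2H2BF was higher than in 2.8K EVs by 0.88 in 10K EVs and 0.72 in 100K EVs (edgeR adjusted p = 0.0334 and 0.0335). HIST1H2BO was higher in 10K EVs by 1.23 (adjusted p = 0.0415, edgeR). Both 10K calls were lost with library totals alone, in a fit on the 6 libraries compared, and without 2.8K replicate 2, 10K replicate 1 or 3, or any single 100K library, with adjusted p of up to 0.0943 and 0.197; that of HIST2H2BF was also lost without 10K replicate 2. The 100K call of HIST2H2BF was lost with library totals alone, in the fit on 6 libraries, and without 2.8K replicate 2 or 100K replicate 1 or 2 (up to 0.148). HIST2H2BF overlaps FCGR1A on the opposite strand.

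Of the 3 tested genes of the linker histone H1, 0 passed in 10K EVs against 2.8K EVs and 1 passed in each of the other comparisons. HIST1H1C (chr6:26055787-26056428, minus strand) measured 252, 244 and 276.5 CPM in 2.8K EVs, 350.2, 392 and 425 CPM in 10K EVs, and 229.7, 272 and 228 CPM in 100K EVs, with 767 CPM in the cells. HIST1H1E (chr6:26156354-26157107, plus strand) measured 332, 286 and 350.3 CPM, 326, 332 and 341 CPM, and 297, 266 and 220.5 CPM, with 781 CPM in the cells. HIST1H1D (chr6:26234268-26234933, minus strand) measured 63.5, 57.0 and 80.4 CPM, 151, 83.6 and 130.4 CPM, and 130.5, 132.5 and 112 CPM, with 322 CPM in the cells. All vesicle libraries lay below the cells for these genes. HIST1H1C was highest in 10K EVs without overlap, whereas the pellets overlapped for HIST1H1E. By edgeR, HIST1H1C fell by 0.69 from 10K EVs to 100K EVs (SE 0.18, adjusted p = 0.0201) and HIST1H1D was higher in 100K EVs than in 2.8K EVs by 0.88 (SE 0.25, adjusted p = 0.0143). The first was lost without 10K replicate 2 or 3 or 100K replicate 1 or 3 (adjusted p = 0.0685, 0.0997, 0.106 and 0.135), and the second without 100K replicate 1 or 2 (0.0508 and 0.0549). In 10K EVs against 2.8K EVs, HIST1H1D missed the threshold at a log2 difference of 0.85 (edgeR adjusted p = 0.0514) and passed in 7 of 17 alternatives, among them those without 2.8K replicate 3 and without 10K replicate 2. HIST1H1C missed it at 0.58 (adjusted p = 0.0681) and passed in 2, DESeq2 and the fit without lnc-ARF6-1. HIST1H1E passed in none of the 3 comparisons.

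In 100K EVs against 10K EVs the 5 calls were thus HIST2H3D and HIST1H4E, which were higher, and HIST1H2BK, HIST1H1C and HIST3H2A, which were lower. The count depended on the libraries and the tool. It was 2 without 10K replicate 3, 3 without 10K replicate 2 or any single 100K library, and 7 without 2.8K replicate 1. DESeq2 called 10, and edgeR on the 6 libraries compared called 12. Of the calls of all 3 comparisons, those that held in every one of the 17 alternatives were 15 of 18, 15 of 22 and 2 of 5. The last 2, HIST2H3D and HIST1H2BK, share 80.4% and 74.1% of their windows with other genes. None of the 17 alternatives changed how such reads were counted.

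The annotation gives 25 members a long form, taken as a protein-coding transcript with at least 2 exons or more than 200 bases after the stop codon; 20 of these were tested, 11 of them H2B. In 10K EVs against 2.8K EVs, 5 of the 20 with a long form and 13 of the 30 without were higher, with median log2 fold changes of 0.47 and 1.33. In 100K EVs against 2.8K EVs, 6 of 20 were higher and 2 lower with a long form, and 13 of 30 were higher and 1 lower without, with medians of 0.27 and 1.08. The same order held within H2B (0.58 with and 1.31 without in the first comparison, and -0.17 and 1.03 in the second) and among H2A, H3 and H4 genes (0.09 and 1.39, and 0.57 and 1.30). Over all genes tested the medians were -0.01 and -0.06. Of these genes 4.15% were called higher and 2.22% lower in the first comparison, and 12% and 13.8% in the second. For 100K EVs against 10K EVs the medians with and without a long form were -0.31 and -0.19 over all types, -0.39 and -0.55 within H2B, and 0.25 and -0.14 among H2A, H3 and H4 genes. The difference between the groups was not tested. By the stem-loop match, the medians were 0.86 with and 1.27 without in the first comparison and 0.66 and 1.03 in the second; many genes without a match have no annotated sequence after the stop codon.

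**Figure D4:**
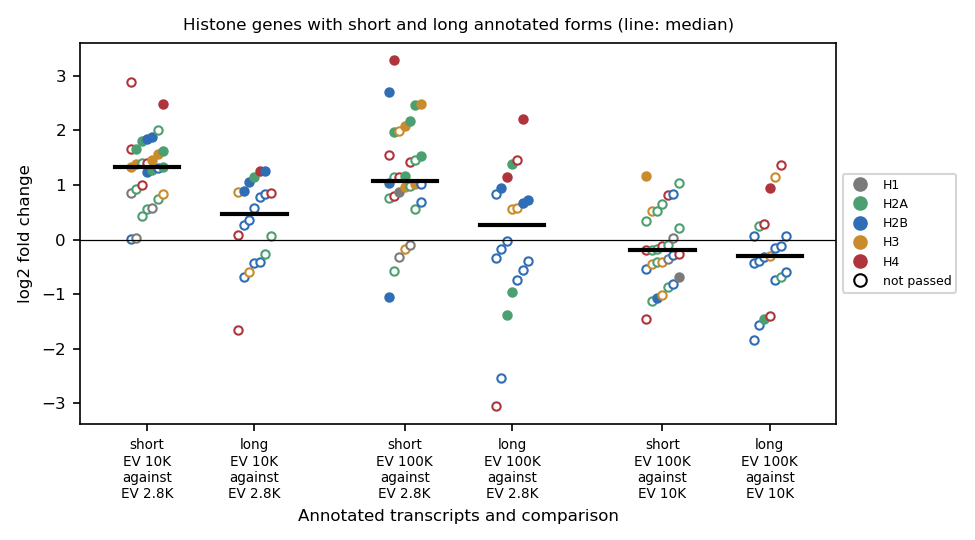
The log2 fold change of each tested histone gene, grouped by whether the annotation gives a long form, for the 3 comparisons (colours: type; filled: adjusted p below 0.05; line: median of the group with HIST1H3J, which is not drawn in the first and last comparisons because it lies beyond the axis). Genes with short forms have medians of 1.33 and 1.08 in the comparisons against 2.8K EVs, and genes with long forms 0.47 and 0.27.

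Against the cells there was 1 library, so differences are described by size only. A gene counted as past 2-fold where all 3 libraries of a pellet lay more than 2-fold above or below the cell library, among the 57 members that passed the count filter over all 10 libraries. The cells formed a group of 1 library, so enough counts in any 1 library let a gene pass this filter. In 2.8K EVs, 0 members were higher and 33 lower, where 3.16% and 13.2% of 22370 genes were. The lower ones include HIST1H1T, HIST2H3C and HIST2H4B, which were below the count filter of the vesicle libraries and had 53, 33 and 38 counts in the cells. In 10K EVs, 1 was higher and 6 lower, with 5.03% and 17.4% of all genes. The 6 include HIST1H1T and HIST1H3J, which had no count in 10K EVs and only 53 and 2 counts in the cells. In 100K EVs, 2 were higher and 16 lower, with 11.1% and 18.6%. Median log2 ratios to the cells over the members were -1.55, -0.53 and -0.80, against 0.00, -0.03 and -0.17 over all genes with a ratio. The gene higher in both 10K and 100K EVs was HIST1H4B, at 4.74 and 8.37 times the cell library in the mean, and the other in 100K EVs was HIST1H3J, which had 2 counts in the cells. Leaving out 1 library moved some counts: without 2.8K replicate 1, 2 were higher in 2.8K EVs, and without 10K replicate 3, 2 were higher in 10K EVs. HIST1H4E, HIST2H3D and HIST1H2BM stood at 2.37, 2.07 and 2.00 times the cells in the 100K mean, but not past 2-fold in every library. By type, those past 2-fold lower in 100K EVs were 8 of 16 H2B, 4 of 5 H1, 2 of 10 H3, 2 of 11 H4 and 0 of 15 H2A genes. The 4 H1 genes include HIST1H1T, which had no count in 100K EVs and 53 in the cells. The 2 H4 genes were HIST1H4J and HIST2H4B, with 81.2% and 97.2% of windows shared with other genes. HIST2H4B had only 38 counts in the cells.

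**Figure D5:**
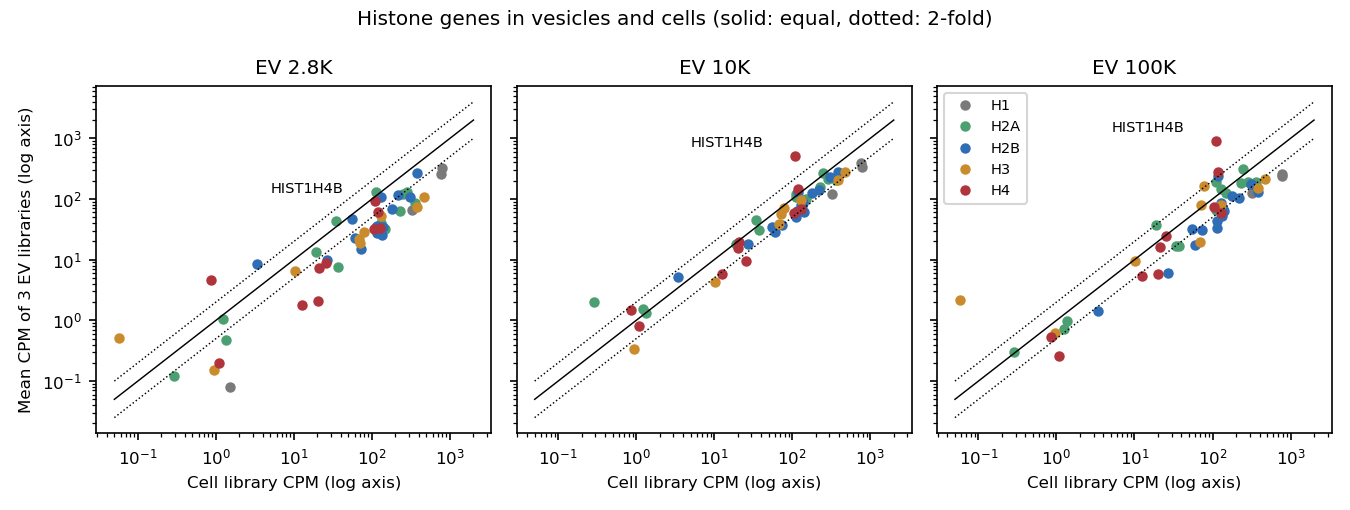
Mean CPM of the 3 libraries of each pellet against CPM of the cell library, both on log axes, for the histone genes above 0 in both (colours: type; solid line: equal; dotted lines: 2-fold). HIST1H4B (named; its point is to the right of its name) lies near the line of equality in 2.8K EVs, at 0.842 times the cells, and above the 2-fold line in 10K and 100K EVs.

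Levels of different members were compared per length, as CPM per kilobase of annotated exon, which for 35 members stops at the stop codon. For members with a long form it includes all annotated sequence of that form, so the order of members also depends on the annotated ends. In the cells the highest were HIST1H1C at 1194, HIST1H3C at 1142, HIST1H1E at 1036 and HIST1H2BK at 1002, and HIST1H4B was in place 20 at 249. In 2.8K EVs the highest was HIST1H2BK at 708 ± 105 (SD, n = 3), and HIST1H4B was in place 7 at 209.9 ± 85.3. In 10K EVs HIST1H4B was first at 1182 ± 281, followed by HIST1H2BK at 723 ± 89.9, and in 100K EVs HIST1H4B was first at 2085 ± 351, followed by HIST1H2BM at 619.5 ± 124 and HIST1H3C at 511 ± 96.2. The gap between HIST1H4B and the next gene exceeded the spread in 10K and 100K EVs; HIST1H2BM and HIST1H3C lay within their SDs of each other.

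Other genes of the histone pathway were taken from 3 lists. Of 15 genes for replication-independent and variant histones, most of which are made throughout the cell cycle from polyadenylated mRNAs, 12 were tested. In 10K EVs against 2.8K EVs 1 was higher and 0 lower, in 100K EVs against 2.8K EVs 1 was higher and 9 lower, and in 100K EVs against 10K EVs 1 was higher and 5 lower, with median log2 fold changes of -0.39, -1.34 and -0.88. Over all genes tested, 4.15% were higher and 2.22% lower in the first comparison, 12% and 13.8% in the second, and 3.7% and 7.23% in the third, which is the background for each of the lists. The gene higher in each was H2AFV, which encodes an H2A.Z variant, by 0.85, 1.72 and 0.88. Its first call was lost with library totals alone, in the fit on 6 libraries, and without 10K replicate 1 or 3 (edgeR adjusted p of up to 0.11), and its last without 100K replicate 2 (0.0503). H2AFJ, an H2A variant gene, fell by 2.33 in 100K EVs against 2.8K EVs and by 2.06 against 10K EVs. H1F0, a linker histone gene, fell by 1.45 and 1.06. Without 10K replicate 3 the second fall of H1F0 did not pass (edgeR adjusted p = 0.0519). H2AFX, which had the stem-loop match, fell by 0.99 and 0.75. Beside the 19 higher and 3 lower replication-dependent members in 100K EVs against 2.8K EVs, the replication-independent genes thus had 1 higher and 9 lower; the difference between the lists was not tested.

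Of 23 genes for histone mRNA transcription and 3′ end processing, 22 were tested: 1 was higher in 10K EVs against 2.8K EVs and 0 lower, 4 and 8 in 100K EVs against 2.8K EVs, and 3 and 5 in 100K EVs against 10K EVs. SLBP, which binds the stem-loop, fell by 1.68 in 100K EVs against 2.8K EVs (SE 0.27, edgeR adjusted p = 0.000121) and by 1.37 against 10K EVs (SE 0.27, adjusted p = 0.00232). DHX9, an RNA helicase, fell by 1.37 in the first of these. SNRPE, which encodes a protein of the Sm ring, was higher than in 2.8K EVs by 0.91 in 10K EVs and 1.28 in 100K EVs, the first lost with library totals alone, in the fit on 6 libraries and without 10K replicate 1 (adjusted p of up to 0.0857). SNRPB and SNRPD3, of the same ring, fell by 1.05 and 1.38 in 100K EVs against 10K EVs. Of 20 histone chaperone genes, 19 were tested: 4 were higher and 1 lower in 10K EVs against 2.8K EVs, 5 and 7 in 100K EVs against 2.8K EVs, and 0 and 4 in 100K EVs against 10K EVs. CHAF1A, the large subunit of the assembly factor that deposits H3 and H4 at replicating DNA, was higher than in 2.8K EVs by 1.93 in 10K EVs and 2.48 in 100K EVs. ANP32E, a chaperone of H2A.Z, was higher by 1.63 and 2.23, and NAP1L1, a chaperone of H2A and H2B, by 0.86 and 1.18. In 100K EVs against 10K EVs, RBBP7, SSRP1 and ASF1B fell by 1.35, 1.12 and 1.14; the ASF1B call was lost without 10K replicate 1 or 3 or 100K replicate 1 or 2 (adjusted p of up to 0.193).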

How the data were processed

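Total RNA of 9 vesicle libraries and 1 cell library was sequenced. The authors deposited 1 table of raw read counts per gene; per the submitters' processing notes it involved bcl2fastq 2.19.1.403, cutadapt 2.7, STAR 2.6.1d, featureCounts 1.6.3 and GRCh38. The annotation's source, the strand setting and the handling of multi-mapping reads were not given in the sources used here. Of the entries, 45574 matched GENCODE 29 gene IDs, and 49372 came from a noncoding catalogue.

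Counts were tested with edgeR 4.0.16 (R 4.3.3): filterByExpr with a minimum count of 10, TMM, robust quasi-likelihood fit on the 9 vesicle libraries by pellet, two-sided, Benjamini-Hochberg over 15525 genes. DESeq2 1.42.0 was an alternative. CPM were scaled by TMM over all 10 libraries. Alternatives covered scaling, the count filter, a replicate block, leaving out each library, mitochondrial genes or lnc-ARF6-1, and the fit's libraries; 2 (leaving out HIST1H4B, or members sharing at least 50% of windows) were added after seeing the data. Replicates were compared pairwise, and all pairs differed by more than sampling noise.

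Members and lists were chosen with earlier results of these data known. Given with every library's value are the 2 members of each type highest over the vesicle libraries, all tested H1 genes, and the 5 called members of highest fold change and the 5 of lowest in each comparison; from each list, the 3 called genes of smallest p (H2AFX was added after its values were seen). The motif was searched in annotated transcripts only, since no genome sequence was used here. One marker result is not reported here.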

Additional observations from a re-analysis of the deposited data

How the results depend on the processing

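Of 238 alternative values for counts and shares, 203 stayed near the main value. The limit was 1.5 times for a count, 1 SD for a pellet's share and the 95% Wilson interval for the cells' share. Leaving out 1 of 3 libraries cannot move a mean share by 1 SD, so such values always counted as staying. A change of direction was not scored for these values. In 100K EVs against 10K EVs, the main fit called more members lower than higher, and DESeq2 more higher than lower. The number of members called in 100K EVs against 10K EVs (5, with 2 higher and 3 lower) varied with the setting. It was 8 with the replicate block (4 higher), 12 in the fit on the 6 libraries compared (6 higher and 6 lower), 10 with DESeq2 (6 higher) and 3 among members with under 50% of windows shared (1 higher); without a filter on low counts 4 were higher. Leaving out 1 library gave 2 to 7 calls, with 1 to 4 higher and 1 to 3 lower. The lower calls in 100K EVs against 2.8K EVs ranged from 1 to 3 when 1 library was left out. Deviations of same-numbered libraries correlated between -0.009 and 0.048, and those of differently numbered libraries between -0.036 and 0.03. These small values do not settle whether the set numbers pair the libraries, and the block was used only as an alternative. With the block there were 21 calls in 10K EVs against 2.8K EVs and 23 in 100K EVs against 2.8K EVs. As a share of protein-coding counts outside the mitochondrial genome, the members took 0.351% in 2.8K EVs, 0.587% in 10K EVs and 0.998% in the cells; the cells' share was 0.957% without mitochondrially encoded genes and 0.916% without HIST1H4B. Against the cells, a 3-fold limit left 15 members lower in 2.8K EVs, 2 in 10K EVs and 3 in 100K EVs, and library totals alone gave 10 lower in 10K EVs. Leaving out 1 library gave 0 to 2 members higher in 2.8K EVs and 1 to 2 in 10K EVs. Library totals alone moved the median log2 fold change of all genes to -0.12 in 10K EVs and -0.21 in 100K EVs, against 2.8K EVs, and 15 and 16 members were then called higher. For the 21 members below the count filter no difference was tested, and 14 of them were at 0 also in the deepest library (28735081 counts). These zeros do not show absence for HIST1H3D, HIST1H2AD and HIST2H3PS2. All or nearly all of their windows are shared with other genes, and each overlaps another gene on the same strand. How such reads were counted was not given in the sources used here.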
